A study of Mus musculus with 6 samples.

Results

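The 10 genes described here are named for pigment cells, the melanocytes and their relatives that make melanin. They are Mitf, Kit, Ednrb, Tyr, Tyrp1, Dct, Pmel, Mlana, Oca2 and Slc45a2. They were chosen by name among 18193 genes that the platform annotation of an Affymetrix mouse array names, and are measured by 19 probe sets that name 1 gene each. Each gene is given by the probe set with its highest mean signal, and by its remaining probe sets after that. The samples were pineal glands of 129 mice at postnatal day 0, either homozygous for a knockout of Neurod1 or wildtype. Neurod1 is a transcription factor gene known from developing neurons, pancreatic islets and retina. There were 3 pools of 3 glands per genotype, and each pool was run on 1 array, with dissection by day and a light-dark cycle shared by both genotypes. The comparison asks how the transcripts of the gland differ at birth without this factor. The labels name neither the 129 substrain nor the deleted part of Neurod1, and some 129 substrains carry coat colour alleles of Tyr and Oca2.

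Pigment cells of skin, meninges and inner ear arise from the neural crest, while the retinal pigment epithelium arises from the neural tube. The transcription factor MITF is required in both. It binds DNA motifs such as the M-box upstream of the genes of melanin synthesis. KIT and EDNRB are receptors that migrating melanoblasts need. Tyrosinase, TYRP1 and DCT are enzymes of melanin synthesis in the melanosome, an organelle related to lysosomes, whose fibrils are built from PMEL. MLANA is a melanosome membrane protein, and OCA2 and SLC45A2 are transporters that affect melanosome pH and tyrosinase activity. Several of these genes serve other cells as well: KIT marks mast cells, and EDNRB is found in glia and vessels.

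The 3 enzyme genes are shown with the 250 bases upstream of their start, since each window holds an M-box core of the kind that MITF is known to bind. Capitals mark TCATGTG on either strand, which reads CACATGA on the other. The sequences are from RefSeq, build GRCm38.p6, 5′ to 3′ on the gene's own strand, and positions are counted back from the gene's start.
Tyr, chr7:87493513-87493762, minus strand: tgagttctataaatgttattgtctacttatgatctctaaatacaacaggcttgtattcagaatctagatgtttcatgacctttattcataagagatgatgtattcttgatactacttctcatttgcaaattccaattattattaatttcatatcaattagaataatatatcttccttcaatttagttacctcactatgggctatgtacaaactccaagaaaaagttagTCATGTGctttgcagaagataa
Tyrp1, chr4:80833963-80834212, plus strand: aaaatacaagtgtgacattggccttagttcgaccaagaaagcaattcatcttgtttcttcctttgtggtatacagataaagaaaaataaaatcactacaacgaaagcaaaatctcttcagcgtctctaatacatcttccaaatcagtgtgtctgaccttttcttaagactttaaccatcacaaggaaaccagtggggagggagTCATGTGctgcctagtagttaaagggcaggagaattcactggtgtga
Dct, chr14:118052247-118052496, minus strand: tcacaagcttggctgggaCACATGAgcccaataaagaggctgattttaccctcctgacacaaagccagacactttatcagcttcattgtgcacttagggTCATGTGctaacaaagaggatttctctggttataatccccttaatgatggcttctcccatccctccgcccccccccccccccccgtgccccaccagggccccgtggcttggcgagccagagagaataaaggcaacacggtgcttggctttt
The motif begins at −22 in Tyr, at −47 in Tyrp1, and at −232 and −151 in Dct, where the first of the pair lies on the opposite strand. Windows were matched for 7 of the 10 genes, and 3 of these 7 genes held the motif. These genes had 10 windows, since Mitf and Kit have several. Among all 32851 promoter windows of the same length, counted by window and not by gene, 3.25% held it. The shorter core CATGTG, which every TCATGTG contains, was in 12.3% of all windows. It was also in the window of Oca2. A match of letters is a description, not a binding site.

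Before the results, the arrays themselves differed. The median signal, a linear fluorescence intensity, lay between 168 and 184 in knockout and between 132 and 182 in wildtype, after a scaling to a common mean by the authors. Neurod1 followed the labels, with signals of 390.2, 524 and 123 in knockout pools 1, 2 and 3, against 9027, 9301 and 7519 in the wildtype pools. It was the 1 gene of 12797 tested that passed a limma adjusted p under 0.05, at 0.0362. Left without knockout pool 1 or any 1 wildtype pool, it kept its sign at a limma adjusted p of 0.0985 to 0.621. Knockout pool 1 stood apart: 32.6% of all tested genes had their highest value there. Pools of the same number share a date in the labels, so differences are also given within numbers.

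None of the pigment cell genes passed the threshold. All values are compared as log2(signal + 38.6), and differences are knockout minus wildtype on that scale, which understates changes of dim genes. Genes with a mean in the lowest 40% of probe sets, a signal under about 105, were not tested. That left 8 of the 10 genes, of which 0 were called by limma, beside 0.00781% of all tested genes. Pmel and Mlana, both defining genes of melanocytes, were below the filter. The limma adjusted p was 0.998 for each of the 8. The SE of their differences lay between 0.26 and 0.55, and with 3 pools a group the difference of 0.80 for Slc45a2 did not pass. In whole glands, fewer cells of a type and less RNA per cell cannot be told apart. Among all 10 genes, 8 had a higher mean in knockout. Over the 8 tested, 6 had a higher mean and the median difference was 0.28, beside 0.028 and 53.2% of genes higher among all genes tested. Tyr is among the 6. On the log2 scale its wildtype mean lay just under the limit of the filter, so it was tested only through its higher knockout values. Within numbers 1, 2 and 3 the median of the 8 was 0.90, 0.015 and 0.019, highest in the pair numbered 1. Without both pools of number 1 the median was −0.0031, and 4 of the 8 had a higher mean.

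**Figure D1:**
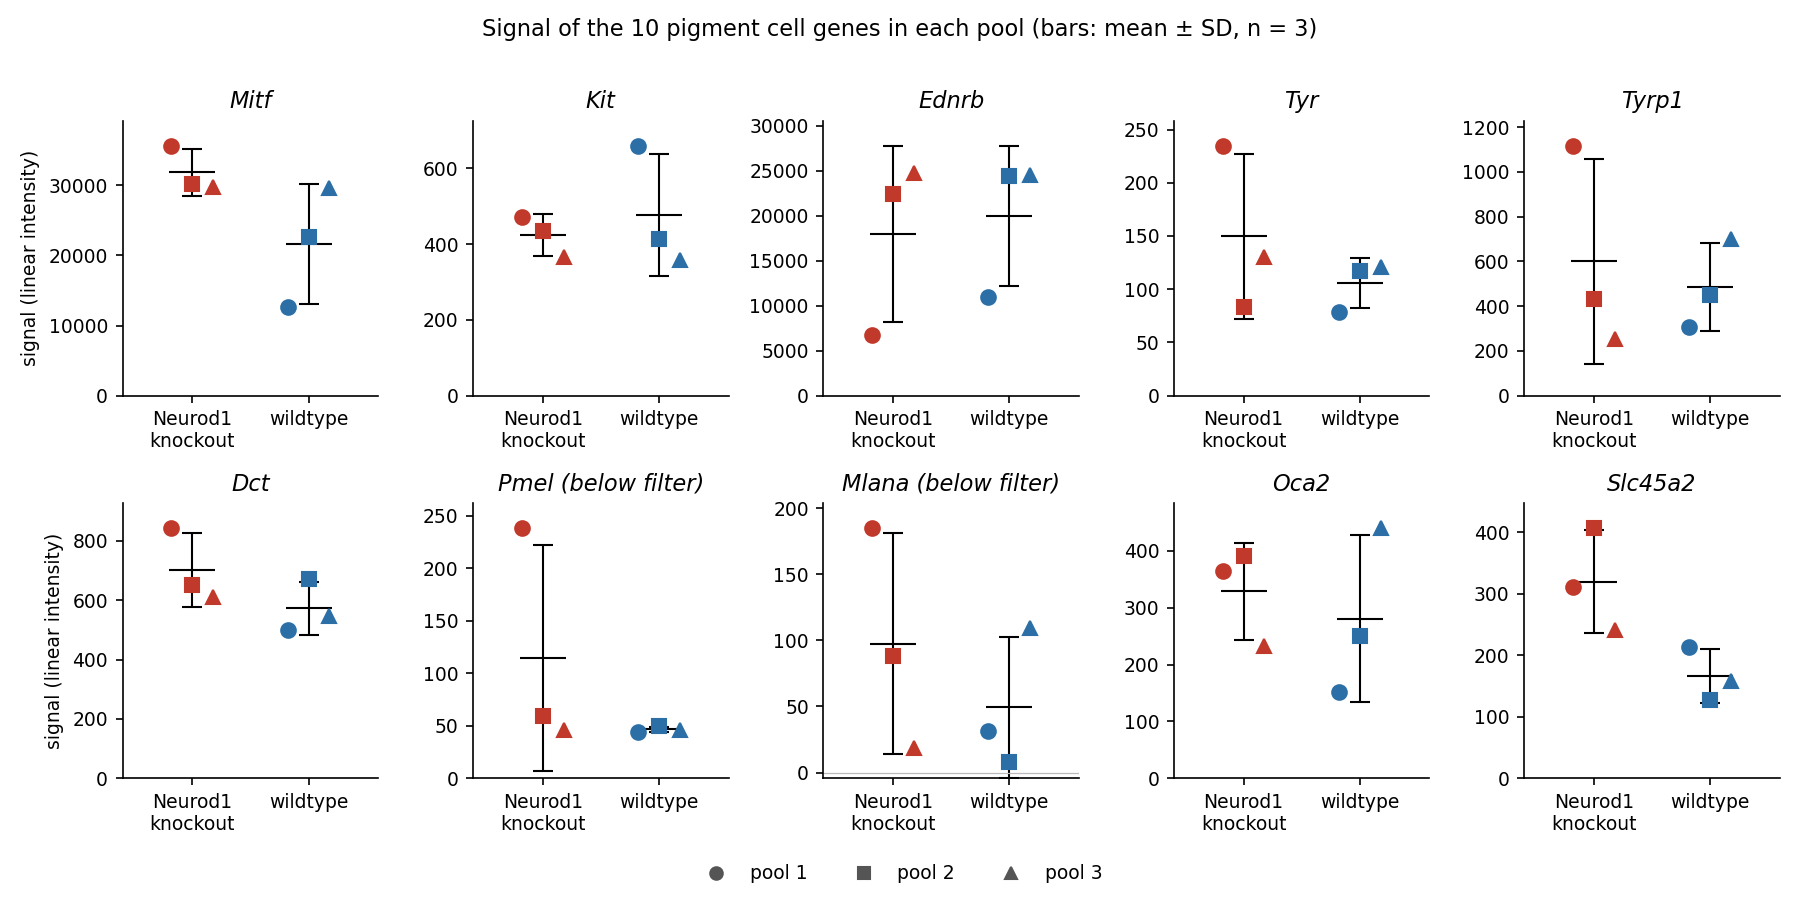
Signal (linear intensity) of each gene in the 3 Neurod1 knockout pools (red, left) and the 3 wildtype pools (blue, right). Symbols give the pool number, horizontal bars the mean and whiskers the SD (n = 3). Knockout pool 1 holds the highest value for 6 of the 10 genes, and the groups separate for Mitf and Slc45a2.

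Mitf, the master regulator of the lineage, had a bright probe set in every pool. Probe set 1455214_at had signals of 35684, 30171 and 29704 in knockout pools 1, 2 and 3, against 12658, 22656 and 29575 in wildtype pools 1, 2 and 3. Every knockout pool was above every wildtype pool, but knockout pool 3 and wildtype pool 3 were nearly equal, and the wildtype pools were spread over more than the gap. The means were 31853 ± 3326 in knockout and 21629.8 ± 8505 in wildtype (SD, n = 3 each), with a log2 difference of 0.64 (SE 0.36). Within numbers 1, 2 and 3 it was 1.49, 0.41 and 0.0063. The difference was 0.29 without wildtype pool 1, the lowest of the 6 arrays. The second probe set, 1422025_at, which rests on another transcript record, had signals of 148, 422 and 435 in knockout, against 99.8, 396 and 268 in wildtype. There the groups overlapped, and both pools numbered 1 were lowest, at a log2 difference of 0.38. The bright probe set was highest in knockout pool 1, where the dim one was low. Bright Mitf signal stood beside Tyr close to the limit of the filter, and Pmel and Mlana below it. The part of pigment cells in the Mitf signal was not tested.

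The relatives of MITF that share its DNA motif were measured too. Tfe3 and Tfeb encode regulators of lysosome genes, and neither was called. Tfe3 had means of 450.4 ± 16.4 in knockout and 403 ± 60.3 in wildtype (SD, n = 3 each). Tfeb had 245 ± 74.5 in knockout and 133 ± 59.1 in wildtype (SD, n = 3 each), a log2 difference of 0.75 (SE 0.38) that did not pass the test. Within numbers 1, 2 and 3 the Tfeb difference was 0.096, 1.63 and 0.53. It was 0.44 without wildtype pool 2 and 1.49 with array weights. Tfec, which is expressed in macrophages and retinal pigment epithelium, was below the filter.

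Kit, which encodes the receptor for stem cell factor, did not separate the genotypes. Its signals were 473, 436 and 365 in knockout pools 1, 2 and 3, against 661, 414 and 358 in wildtype pools 1, 2 and 3. Wildtype pool 1 was highest and the groups overlapped. The means were 425 ± 54.6 in knockout and 477 ± 161 in wildtype (SD, n = 3 each), with a log2 difference of −0.12 (SE 0.29). Without wildtype pool 1 the difference was 0.12, the other sign. The other Kit probe set was below the filter, with a log2 difference of −0.091. Kitl, which encodes the ligand of KIT, had 1540.1 ± 482 in knockout and 1763 ± 199 in wildtype (SD, n = 3 each) and a log2 difference of −0.24 (SE 0.32).

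Mast cells also carry KIT, and their marker genes had higher means in knockout for 9 of 9 tested, none past the threshold. Their median log2 difference was 0.58, beside 0.028 over all genes tested. Mcpt4, a mast cell protease gene, had 239, 110 and 191 in knockout and 94.6, 129 and 87.8 in wildtype. Its wildtype mean lay under the limit of the filter, so it was tested only through its higher knockout values. Both the 9 and the median include Mcpt4. The summed signal of the 10 mast cell genes with a probe set was 8949 to 9599.5 in knockout pools and 5704 to 6178 in wildtype pools, without overlap. Cpa3, a mast cell carboxypeptidase, had signals of 3110.2, 3016 and 3519 in knockout, against 1791, 1951 and 2073 in wildtype, a log2 difference of 0.72 (SE 0.27). Hdc, of histamine synthesis, had 450.3, 609 and 686 in knockout and 287, 163 and 167 in wildtype, at 1.36 (SE 0.30). Cpa3 and Hdc were the 2 of the 9 whose groups did not overlap, both higher in knockout, beside 5.77% of all genes tested. Groups overlapped for Tpsb2, at 0.25 (SE 0.44), and Ms4a2, at 0.036 (SE 0.52), among others. Kit itself had −0.12 (SE 0.29), or 0.12 without wildtype pool 1. The part of mast cells in the Kit values was not tested.

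Ednrb, the endothelin receptor gene of melanoblasts, was low in both pools numbered 1, whatever the genotype. Probe set 1437347_at had signals of 6728, 22439.5 and 24772 in knockout pools 1, 2 and 3, against 10949, 24407 and 24572 in wildtype pools 1, 2 and 3. The other 4 pools lay close together, and the groups overlapped. The means were 17979.8 ± 9814 in knockout and 19976 ± 7818 in wildtype (SD, n = 3 each), with a log2 difference of −0.27 (SE 0.55). With the pool number as a block the SE was 0.28. Within numbers 1, 2 and 3 the difference was −0.70, −0.12 and 0.012. Without knockout pool 1 it was 0.33, the other sign.

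The other Ednrb probe sets did not all share this. Probe set 1423594_a_at had signals of 159, 407 and 446 in knockout and 239.8, 894 and 519 in wildtype, also lowest in the pools numbered 1. Probe set 1426314_at had 367, 404 and 358 in knockout and 283, 353 and 453 in wildtype, where knockout pool 1 was not low. Glia and vessels carry EDNRB as well, and the part of these cells in its values was not tested. Of 8 tested astrocyte and radial glia genes, 4 had a higher mean, and the summed signal of the list was 28243 to 58059.7 in knockout and 26341 to 30024 in wildtype. Aqp4 and Hes5 were below the filter. Glul, a glutamine synthetase gene of astrocytes, had 37061, 18854 and 20707 in knockout and 13608, 16382 and 17526 in wildtype. Gfap differed by 0.53 (SE 0.33) on the log2 scale, or 0.24 without wildtype pool 1. Slc1a2 went the other way, with 1725, 1911 and 1947 in knockout and 2191, 2624.5 and 2474.5 in wildtype. Its other probe sets disagreed in sign. Groups did not overlap for Glul and for Slc1a2, beside 5.77% of all genes tested higher in knockout and 4.33% lower. Relative to the mean of the 6 arrays, the median of 8 tested astrocyte and radial glia genes was 0.11, 0.035 and 0.0099 in knockout pools 1, 2 and 3 and −0.33, −0.11 and 0.10 in the wildtype pools. In knockout pool 1 the median of all genes tested was 0.17, above that of this list. For 10 endothelial genes it was 0.31, 0.28 and −0.31 in knockout and 0.27, −0.039 and −0.52 in wildtype, above 0 in both pools numbered 1, where all genes tested had 0.17 in knockout and 0.017 in wildtype. Of these 10, 9 had a higher mean in knockout (5 without knockout pool 2, and 5 without wildtype pool 3), and none was called. Tie1 is among the 9, and on the log2 scale its wildtype mean lay under the limit of the filter. Tie1 was thus tested only through its higher knockout values, and both the 9 and the median deviations of this list include it. The summed signal of the list was 8810.3 to 16383 in knockout and 9271 to 13309 in wildtype. Robo4, a vessel receptor gene, had 316, 278 and 298 in knockout and 164, 146 and 187 in wildtype, and Cdh5, of vessel junctions, differed by 0.41 (SE 0.27), or 0.24 without wildtype pool 3.

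Of the ligand genes, Edn3 had a log2 difference of 0.23 (SE 0.30) and Edn1 one of 1.00 (SE 0.55). Edn1 had 276, 171 and 345 in knockout and 220.0, 166 and 21.2 in wildtype, and wildtype pool 3 alone was far below the rest. The difference was 0.35 without that pool and 0.19 with array weights.

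Of the enzyme genes, Dct, which encodes dopachrome tautomerase, varied least. Its signals were 844, 652 and 611 in knockout pools 1, 2 and 3, against 499, 671 and 547 in wildtype pools 1, 2 and 3. Knockout pool 1 was highest, wildtype pool 1 lowest, and the groups overlapped. The means were 702 ± 124 in knockout and 572 ± 89.0 in wildtype (SD, n = 3 each), with a log2 difference of 0.28 (SE 0.26). Within numbers 1, 2 and 3 it was 0.71, −0.039 and 0.15, and without knockout pool 1 it was 0.14.

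Tyrp1, the gene of tyrosinase-related protein 1, varied most among the tested enzymes and showed no direction. Probe set 1415861_at had signals of 1118, 429.9 and 251 in knockout pools 1, 2 and 3, against 308, 452 and 698 in wildtype pools 1, 2 and 3. The highest and the lowest of the 6 arrays were both knockout pools. The means were 599.5 ± 457 in knockout and 486 ± 197 in wildtype (SD, n = 3 each), with a log2 difference of 0.11 (SE 0.50) and 1.74, −0.065 and −1.35 within numbers 1, 2 and 3. Leaving out knockout pool 1 gave −0.44, and leaving out knockout pool 3 gave 0.56. It was −0.031 when arrays were centred on their medians. The 2 other probe sets had log2 differences of −0.063 and 0.093. In 1439409_x_at knockout pool 1 was again highest and knockout pool 3 lowest, at 580.0, 371 and 267 in knockout, against 269, 380.4 and 458 in wildtype.

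Tyr encodes tyrosinase, the first and limiting enzyme of melanin synthesis. Probe set 1448821_at had signals of 235, 83.5 and 130.3 in knockout pools 1, 2 and 3, against 78.4, 117 and 121 in wildtype pools 1, 2 and 3, close to the limit of the filter. On the log2 scale the wildtype mean lay just under that limit, so Tyr was tested only through its higher knockout values. Knockout pool 1 was highest and the other 5 arrays lay between 78.4 and 130.3. The means were 149.6 ± 77.6 in knockout and 106 ± 23.7 in wildtype (SD, n = 3 each), with a log2 difference of 0.32 (SE 0.40), and 0.0070 without knockout pool 1. The 2 other probe sets were below the filter and disagreed in sign, with log2 differences of 0.21 and −0.55.

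The melanosome genes Pmel and Mlana were near the floor of the arrays in most pools. Pmel had signals of 239, 59.4 and 45.6 in knockout pools 1, 2 and 3, against 44.3, 49.5 and 45.6 in wildtype pools 1, 2 and 3. Only knockout pool 1 stood out, and the other 5 arrays lay between 44.3 and 59.4. The 20th percentile of all signals of an array was 28.4 to 45.6. Mlana had 185, 88.2 and 18.8 in knockout and 31.1, 7.60 and 109 in wildtype, again highest in knockout pool 1 with wildtype pool 3 next. Neither entered the main test. With no filter the log2 difference was 0.63 (SE 0.46) for Pmel and 0.59 (SE 0.58) for Mlana, each at a limma adjusted p of 0.998. Without knockout pool 1 the differences were 0.095 for Pmel and 0.13 for Mlana. Detection calls were not used here.

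Slc45a2 had the largest difference of the tested members in its brighter probe set, and the opposite sign in its other one. Probe set 1451055_at had signals of 311, 407 and 241 in knockout pools 1, 2 and 3, against 213, 127 and 158 in wildtype pools 1, 2 and 3. Every knockout pool was above every wildtype pool. The means were 319.6 ± 83.2 in knockout and 166 ± 43.5 in wildtype (SD, n = 3 each), or 1.93 times as much signal. On the log2 scale that was 0.80 (SE 0.31), with 0.48, 1.43 and 0.51 within numbers 1, 2 and 3, and its limma adjusted p was 0.998. Array weights, which gave most weight to the pools numbered 2, called it higher at a limma adjusted p of 0.00331. Probe set 1437430_at had 77.2, 35.2 and 167 in knockout and 134, 143 and 142 in wildtype, with 2 of 3 knockout pools below every wildtype pool and a log2 difference of −0.56. The mean of both probe sets gave 0.12.

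Oca2, the gene behind the pink-eyed dilution coat, had signals of 364, 391 and 232 in knockout pools 1, 2 and 3, against 152, 249.7 and 440.3 in wildtype pools 1, 2 and 3. The wildtype pools held both the lowest and the highest value. The means were 329 ± 85.0 in knockout and 281 ± 147 in wildtype (SD, n = 3 each), with a log2 difference of 0.28 (SE 0.38). It was 1.08, 0.57 and −0.82 within numbers 1, 2 and 3, and −0.045 without wildtype pool 1.

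**Figure D2:**
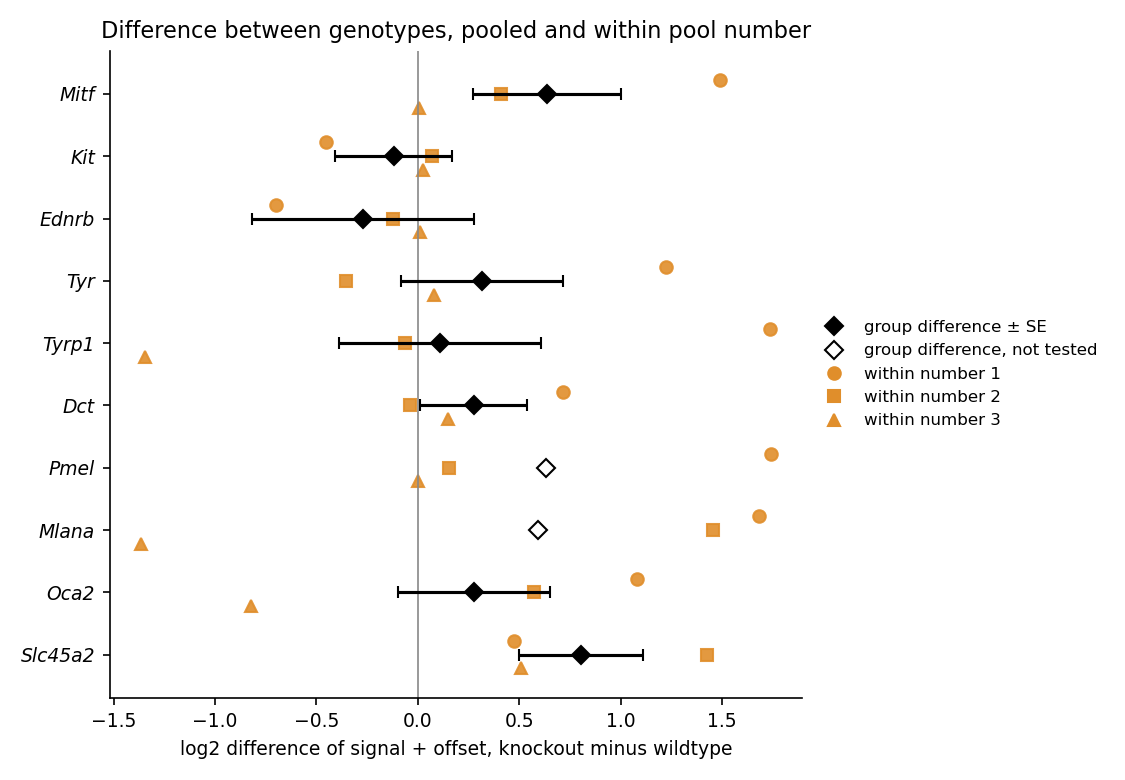
Log2 difference of signal + 38.6, knockout minus wildtype, for each gene: black diamonds give the group difference with the SE of the limma fit, open diamonds the 2 genes that were not tested, and orange symbols the difference within each pool number. Number 1 (circles) lies to the right for 8 of the 10 genes, and the 3 numbers fall on both sides of 0 for Tyr, Tyrp1, Dct, Mlana, Oca2, Kit and Ednrb.

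Across the members, the groups did not overlap for 2 of the 10 genes, Mitf and Slc45a2, both higher in knockout. Groups did not overlap in that direction for 5.77% of all genes tested, in the opposite one for 4.33%, and in either for 10.1%. At an unadjusted limma p under 0.05 there was 1 of the 8 tested members, Slc45a2, beside 3.34% of all genes, 1.98% in that direction. Mitf was higher in knockout within all 3 numbers, by 0.0063 in the third, and so was Slc45a2. No member was lower within all 3.

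The members' values were spread unevenly over the pools. Knockout pool 1 held the highest value of Mitf, Tyr, Tyrp1, Dct, Pmel and Mlana, 6 of the 10 genes and 4 of the 8 tested, beside 32.6% of all genes tested. It held the lowest value of Ednrb. Wildtype pool 1 held the lowest value of 5 of the 10 genes and of 4 of the 8 tested, beside 19.0% of all genes tested. The absolute difference was largest within number 1 for 9 of the 10 genes, Slc45a2 being the exception. Within that pair it was 1.74 for Pmel, 1.74 for Tyrp1 and 1.68 for Mlana on the log2 scale.

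**Figure D3:**
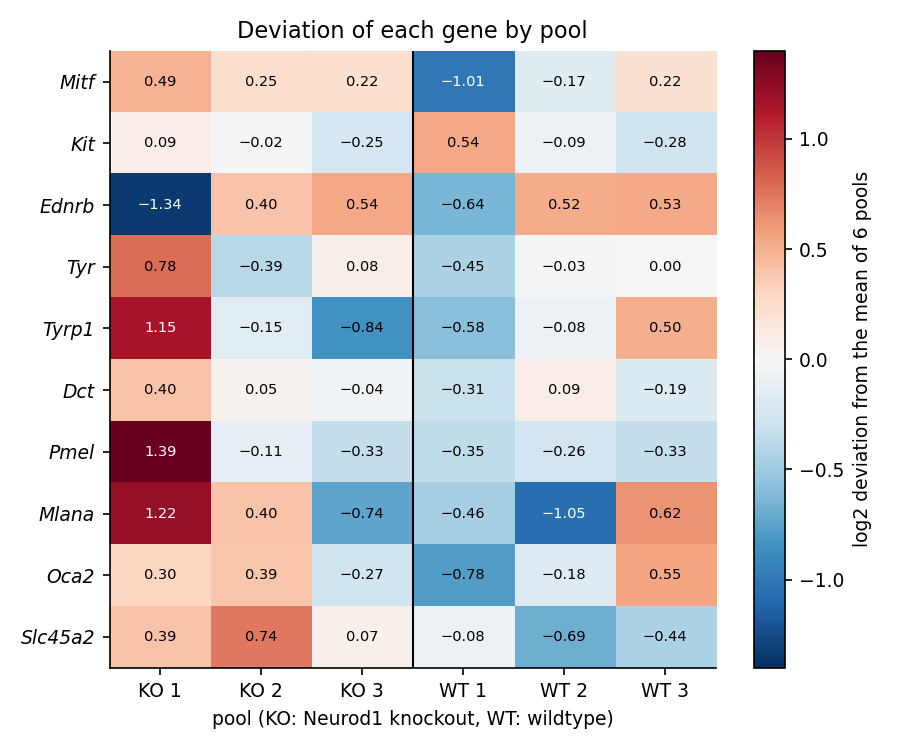
Log2 deviation of each gene in each pool from its mean over the 6 pools, with knockout pools left of the line and wildtype pools right of it. Red is above and blue below the mean. Knockout pool 1 is red for 9 of the 10 genes and dark blue for Ednrb.

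**Figure D4:**
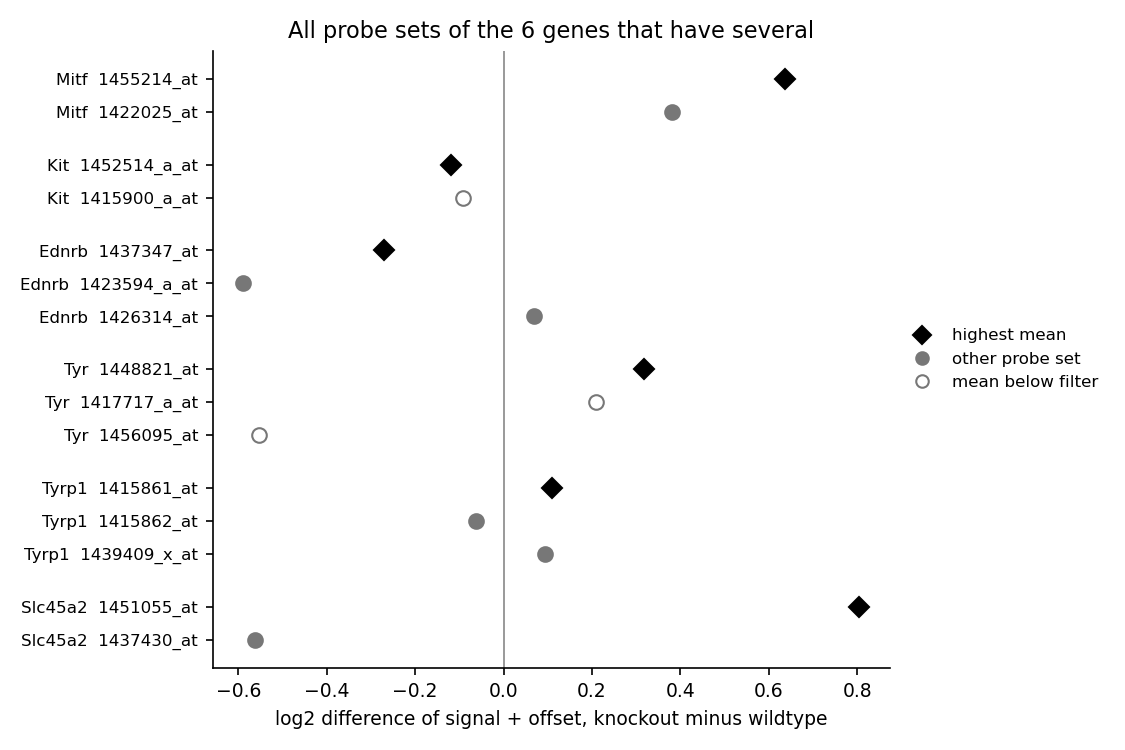
Log2 difference of signal + 38.6, knockout minus wildtype, for each probe set of the 6 genes with several. Diamonds mark the probe set of highest mean, and open symbols a mean below the filter. Probe sets of Slc45a2, Tyr, Tyrp1 and Ednrb lie on both sides of 0.

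Other genes of melanosomes and pigmentation did not share a direction. Of 25 with a probe set, 20 were tested: 10 had a higher and 10 a lower mean, none was called, and the median log2 difference was −0.0062. Gpr143, a receptor of melanosomes and retinal pigment epithelium, Trpm1, Mlph, Hps6 and Tpcn2 were below the filter. Slc7a11, the cystine transporter gene of the subtle gray coat, had the smallest p of the list. Its signals were 60.5, 449 and 187 in knockout and 445, 537 and 751 in wildtype, with knockout pool 1 far below the rest and groups that overlapped. The log2 difference was −1.45 (SE 0.52), while the other Slc7a11 probe set had 0.48. It was −0.87 without knockout pool 1 and −0.39 with array weights. Mreg, the melanoregulin gene, had 1991 ± 898 in knockout and 2830.4 ± 561 in wildtype (SD, n = 3 each) and a log2 difference of −0.57 (SE 0.37), while leaving out knockout pool 1 gave −0.33 and leaving out knockout pool 3 gave −0.91. Hps1 and Bloc1s3, subunits of complexes that build melanosomes and other lysosome-related organelles, differed by 0.61 (SE 0.38) for Hps1 and 0.50 (SE 0.35) for Bloc1s3 on the log2 scale. Without knockout pool 1 they were 0.35 for Hps1 and 0.20 for Bloc1s3, and without knockout pool 3 Hps1 had 1.04. Bloc1s3 had 0.77 without knockout pool 2. The 3 other Hps1 probe sets gave 0.31, −0.29 and 0.43. The melanocortin receptor gene Mc1r, which sets pigment type, was highest in knockout pool 1 as the enzyme genes were, at 326, 141 and 192 in knockout and 139.5, 147 and 151 in wildtype.

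Factors and ligands of the melanocyte lineage had a higher mean for 14 of 18 tested genes, with 0 called and a median log2 difference of 0.19. Within numbers 1, 2 and 3 the median was 0.30, 0.12 and 0.29. The groups did not overlap for 3 of the 18, Tfap2b, Foxd3 and Usf2, all higher in knockout, beside 5.77% of all genes tested. All 3 wildtype values of Foxd3 lay under the limit of the filter, so it was tested only through the knockout pools where it is high. Its difference and its lack of overlap give no support, and both the 14 and the 3 of the 18 include it. Tfap2b, a neural crest factor, had 357, 261 and 249 in knockout pools 1, 2 and 3, against 108, 134 and 148 in the wildtype pools, a log2 difference of 0.95 (SE 0.29), while its other probe set had 0.044. Foxd3, which marks early neural crest and holds back the melanocyte fate, had 222, 149 and 204 in knockout, against 79.1, 18.4 and 78.2 in wildtype, a log2 difference of 1.31 (SE 0.41). With no offset it was not among the genes tested. Sox10 and Pax3, which switch on Mitf in melanoblasts, differed by 0.15 (SE 0.35) for Sox10 and −0.0085 (SE 0.34) for Pax3. Sox10 had 232, 248 and 116 in knockout and 132, 160.3 and 221 in wildtype, and the groups overlapped. Its 2 other probe sets differed by −0.31 and 1.06.

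**Figure D5:**
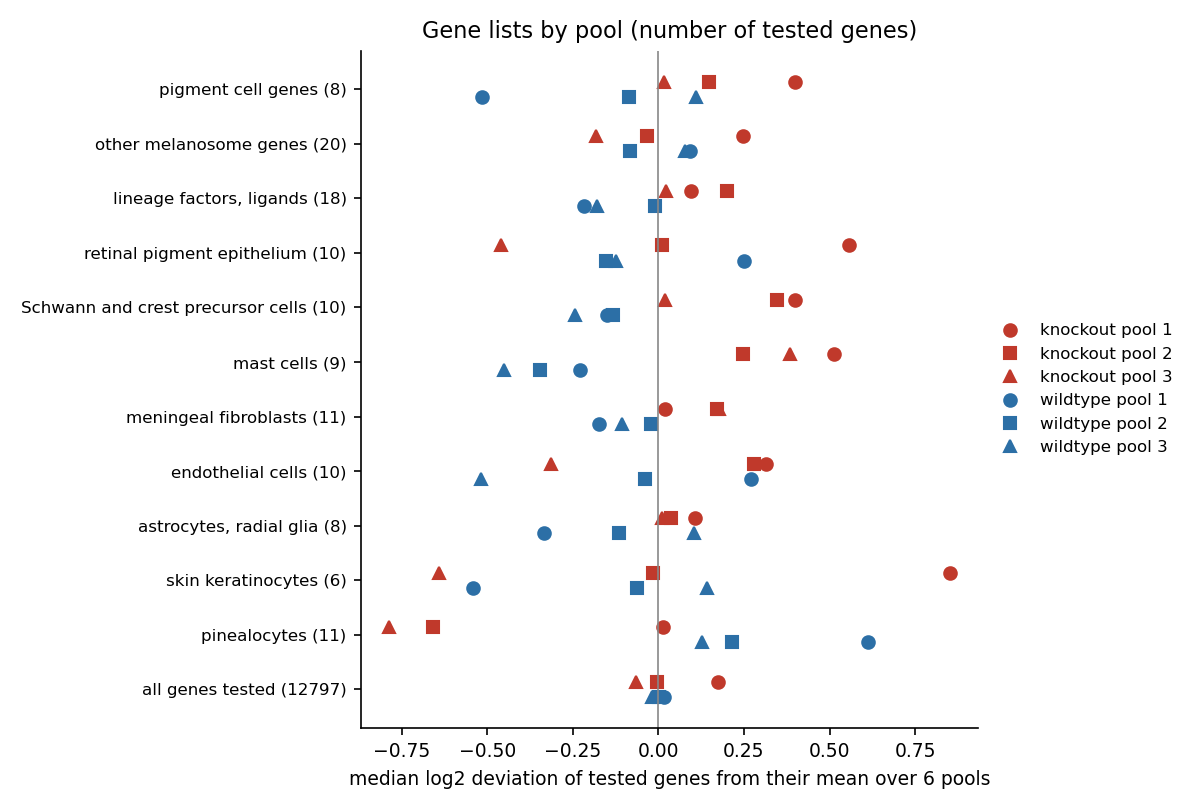
Median log2 deviation of the tested genes of each list from their own mean over the 6 pools, by pool (knockout red, wildtype blue, symbols for pool number), with the number of tested genes in parentheses. The knockout pools lie above the wildtype pools for the mast cell, Schwann and crest, meningeal fibroblast and lineage factor lists, and below them for the pinealocyte list. The Schwann and crest and lineage factor lists include Foxd3, tested only through its knockout pools. Tyr, Mcpt4, Tie1, Cdh19 and Slc16a8 also had wildtype means under the limit of the filter, on the log2 scale. Knockout pool 1 is also the highest over all genes tested, at 0.17, and is highest for several lists, among them the pigment cell, retinal pigment epithelium and keratinocyte lists.

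Marker genes of other cells that could carry pigment genes had uneven levels over the pools. Of 9 skin keratinocyte genes 6 were tested, 5 had a higher mean in knockout, 2 did without knockout pool 1, and 3 without wildtype pool 1. They had median deviations of 0.85, −0.016 and −0.64 in knockout pools 1, 2 and 3 and −0.54, −0.062 and 0.14 in wildtype pools 1, 2 and 3. For Tyrp1 the deviations were 1.15, −0.15 and −0.84 in knockout and −0.58, −0.084 and 0.50 in wildtype, and in both series knockout pool 1 was highest, wildtype pool 3 next and knockout pool 3 lowest. The summed keratinocyte signal was 1329 to 3895 in knockout and 2057 to 2189.5 in wildtype pools. Krt5, a keratin of basal epidermis, had 391, 222 and 260.4 in knockout and 150.1, 193 and 287 in wildtype, while Krt1, Krt17 and Trp63 were below the filter. The part of skin in the pigment gene values was not tested.

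Retinal pigment epithelium genes gave a mixed picture. Of 16 genes, Rpe65, Lrat, Rgr, Best1, Cdh3 and Stra6 were below the filter, the first 4 of them defining for that tissue. The 10 tested had median deviations of 0.56, 0.0090 and −0.46 in knockout and 0.25, −0.15 and −0.12 in wildtype pools. The summed signal was 20369 to 110369 in knockout and 21419 to 93712 in wildtype. The largest part of that spread was Ttr, which choroid plexus also makes in quantity. Ttr had signals of 87464, 58637 and 685 in knockout pools 1, 2 and 3 and 898, 38903 and 60484 in wildtype pools 1, 2 and 3. Like Tyrp1, it was highest in knockout pool 1, next in wildtype pool 3 and lowest in knockout pool 3. Of the 10 tested genes 4 had a higher mean in knockout, and 2 without knockout pool 1. Slc16a8, a lactate transporter of the retinal pigment epithelium, had 203, 130.3 and 209.8 in knockout and 82.4, 105 and 70.7 in wildtype, a log2 difference of 0.81 (SE 0.34). Its wildtype values also lay under the limit of the filter. Otx2, a factor of this epithelium and of pinealocytes, had −0.40 (SE 0.28). The part of retinal pigment epithelium in these values was not tested.

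Genes of Schwann and neural crest precursor cells, from which some melanocytes are known to arise, had a higher mean for 9 of 10 tested, with 0 called. Foxd3, tested only through its knockout pools, is among the 9. So is Cdh19, whose wildtype mean of 103 also lay under the limit of the filter. The count and the medians of this list lean on both. The median deviations of the list were 0.40, 0.35 and 0.019 in knockout and −0.15, −0.13 and −0.24 in wildtype pools. The summed signals were 28257 to 33886 in knockout and 21173 to 30469.8 in wildtype. Mbp, of myelin, had 353, 282 and 264 in knockout and 155, 212 and 224 in wildtype. Meningeal fibroblast genes, which mark the membranes where melanocytes can lie, had a higher mean for 10 of 11, and for 5 without knockout pool 3. Their median deviations were 0.019, 0.17 and 0.18 in knockout and −0.17, −0.021 and −0.11 in wildtype, and their summed signals were 119007 to 142907 in knockout and 96672 to 104598 in wildtype. With arrays centred on their medians, 5 of the 11 were higher, beside 37.7% of all genes tested. Pdgfra had 1872, 3672 and 5620.1 in knockout and 1857, 1883 and 1993 in wildtype, while Mgp had 10066, 4297 and 5330.0 in knockout and 4174, 4235 and 2682 in wildtype. Pinealocyte genes had lower means for 10 of 11, Neurod1 among them (8 of 11 without knockout pool 2, and 9 without knockout pool 1), with median deviations of 0.013, −0.66 and −0.79 in knockout and 0.61, 0.21 and 0.13 in wildtype. The part of these cells in the pigment gene values was not tested.

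Likeness of pattern was measured as the mean absolute difference of log2 deviations over the 6 arrays, among the other 12796 genes tested. The genes nearest to Tyr were Smyd4, Gm38402 and Spin2c, at 0.050, 0.055 and 0.058. Those nearest to Tyrp1 were Gprc5a, 1500035N22Rik and Sirpb1a, at 0.11, 0.13 and 0.14, and those nearest to Dct were Hspb7, Acss2 and Mettl2, at 0.044, 0.044 and 0.049. No other tested pigment cell gene was among them. Pmel and Mlana, below the filter, were not compared. The nearest tested member to Tyr was Dct, at rank 749 with 0.23, and to Tyrp1 it was Tyr, at rank 786 with 0.37. Mitf stood at rank 2997 for Tyr, 3118 for Tyrp1 and 5187 for Dct. With 6 arrays that share their dates in pairs, these ranks describe the arrays only.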

How the data were processed

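Amplified RNA of 6 pools was labelled with biotin and hybridised to Affymetrix arrays, per the labels' protocols. The deposited values are probe set signals, a linear intensity, for 45037 probe sets. The submitters' processing notes name GCOS, with no algorithm for the signal. The deposited intensity columns had 2% trimmed means of 499.5 to 500.0, as a scaling by the authors before deposit would leave. No further normalization was applied.

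To each value 38.6 was added, the 20th percentile over the table. Of the probe sets, 34945 named 1 gene, and 34741 of their identifiers matched RefSeq (GRCm38.p6). Probe sets in the lowest 40% by mean log2 value were dropped, and 12797 genes stayed. The 2 genotypes were fitted in limma 3.58.1 (R 4.3.3) by lmFit and eBayes with a trend, on 4 residual degrees of freedom, with two-sided tests and Benjamini-Hochberg adjustment over all genes. An exact permutation test of 3 against 3 pools cannot go below p = 0.1 and is not given. The fit was tested on simulated data, with changes far larger than the differences of the pigment cell genes. That run does not show whether differences of their size would be found. The design text calls the pools separate biological samplings.

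The labels give same-numbered pools a shared date. Their deviations from the group means correlated by 0.32, 0.25 and 0.36 across genes, so the numbers pair the pools. From the other lists the genes of smallest p are named, at most 4 for pigment lists and 2 for cell types, plus the 3 genes nearest in pattern to Tyr, Tyrp1 and Dct. Tfe3, Kitl, Edn3, Sox10, Pax3, Usf2, Mc1r, Ttr, Tpsb2, Ms4a2 and Slc1a2 were added after their values were seen. Alternatives covered the offset, scaling, filter, probe set choice, trend, array weights, pairing and left-out pools. The members, lists and tests were chosen with earlier results of these data known. The number of arrays limits the precision.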

Additional observations from a re-analysis of the deposited data

How the results depend on the processing

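No pigment cell gene was called under any setting except array weights, which called Slc45a2 (1 of 8) along with 1512 higher and 1420 lower genes. These weights were 6.20 and 7.05 for knockout and wildtype pool 2 and at most 0.541 elsewhere, from an iteration that stopped before convergence. Otherwise the 1 lower call was Neurod1, and 0 genes were lower with no offset, with quantile normalization, and without both pools of number 1, 2 or 3. At an unadjusted limma p under 0.05 these 5 gave 420, 423, 723, 123 and 586 genes. When 1 pool was left out, the count of lower calls lay between 0 and 1 and that of higher calls was 0. It was 0 without knockout pool 1 and without wildtype pool 1, 2 or 3, with 1161, 245, 215 and 664 genes at an unadjusted limma p under 0.05. With the replicate block, 1 gene was lower, no pigment cell gene was called, and their limma adjusted p lay between 0.768 and 0.967; pairing by number changed no call. The median over all genes moved by −0.14 with arrays centred on their medians, and the share of genes with a higher mean was then 37.7%, against 53.2% before.

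The direction of 5 members depended on single pools or settings. Tyr had log2 differences of −0.26 with array weights and −0.14 without both pools of number 1. Tyrp1 had −0.031 with median centring, −0.072 with array weights and −0.71 without both pools of number 1, and between −0.44 and 0.56 when 1 pool was left out (−0.44 without knockout pool 1, −0.16 without wildtype pool 1). Kit had 0.026 with array weights and 0.048 without both pools of number 1, and between −0.29 and 0.12 when 1 pool was left out. Oca2 had −0.12 without both pools of number 1 and between −0.045 and 0.62 when 1 pool was left out (−0.045 without wildtype pool 1), and Ednrb between −0.66 and 0.33. Mitf, Dct and Slc45a2 kept a positive sign under every setting run, with Mitf between 0.21 and 0.95 and Slc45a2 between 0.12 and 1.32. Pmel lay between 0.077 and 0.95 and Mlana between 0.046 and 1.57. Sprr1a, a keratinocyte gene, had −0.052 with array weights. The cause of these shifts was not tested.

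Counts of genes with a higher mean moved by over 1.5 times in 5 cell type lists. Retinal pigment epithelium genes numbered 7 of 10 without both pools of number 3 and 2 to 6 when 1 pool was left out. Meningeal fibroblast genes numbered 5 of 11 with median centring, 5 without both pools of number 3. Keratinocyte genes numbered 3 of 6 with array weights and 2 without both pools of number 1. Pinealocyte genes numbered 3 of 11 without both pools of number 2. When 1 pool was left out, the ranges were 5 to 10 for fibroblast, 5 to 9 for endothelial, 2 to 6 for keratinocyte and 1 to 3 for pinealocyte genes.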
